A study of Mus musculus with 24 samples.

Results

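Transcripts of 10 scavenger and particle-uptake receptors were followed in SIM-A9 cells, a spontaneously immortalized mouse microglial line, after 2 h with probes used on neurons. The genes were taken by symbol, from 54838 genes in the count table: Marco, Msr1, Cd36, Scarb1, Scarb2, Olr1, Clec7a, Cd68, Stab1 and Mrc1. Scavenger receptors are surface proteins that bind modified lipoproteins, bacterial wall components, dying cells and foreign particles and carry them into the cell. They are grouped into classes by structure, so that receptors of different classes share ligands but not ancestry. In microglia and other macrophages they are known for clearing debris and lipid, and MARCO and SR-A1 are known for binding unopsonized particles.

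The series asks how neuro-probes affect these cells, with LPS (bacterial lipopolysaccharide) as the positive control for inflammation. Cells of the same line sat in 270 uL of serum-free medium for 2 h, 30 uL of a 10x sample was added, and poly-A RNA was taken 2 h later. The 8 groups of 3 libraries were control (untreated), LPS, (GT)6 SWCNT (single-walled carbon nanotubes, (GT)6 naming a short DNA that wraps them), COOH SWCNT (carboxylated nanotubes), AAV (adeno-associated virus), Fura-2 (an indicator of calcium), and Di-2-ANEPEQ and DiBASC2, both dyes. The DiBASC2 libraries were grouped by title, because their treatment labels end in a different number in each library. The concentrations behind the 10x samples are not given in the sources used here, so the groups are compared as deposited and not at matched doses. All libraries come from 1 cell line, and nothing says that replicates were separate cultures rather than wells of 1 plate, so p-values measure the spread between these libraries. The column names of a group's libraries end in neighbouring numbers after an S, and what these numbers stand for is not stated. Any order they follow and group cannot be told apart.

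Libraries held 17364272 to 29259221 counts. Of 10 microglia and macrophage markers fixed for the line, 9 passed the filter on low counts, and their summed level was 1115 to 1197 CPM across the 24 libraries (CPM, the usual depth-scaled count, here with TMM factors between libraries). Csf1r lay at 461 to 553 CPM and Trem2 at 139 to 176 CPM. The homeostatic microglia markers P2ry12 (1.54 to 3.26 CPM) and Tmem119 (2.75 to 5.32 CPM) were low, and Sall1, a defining microglial transcription factor, had 0 counts in 21 libraries and at most 2 in the others. The summed levels of the astrocyte list and of the fibroblast and mural list stayed under 1 CPM in each library, the neuron list reached 1.03 CPM and the oligodendrocyte list 3.41 to 5.80 CPM. Of 5 endothelial markers, the VEGF receptor genes Kdr (90.5 to 141 CPM) and Flt1 (158 to 239 CPM) were expressed, while Cldn5 had 0 counts in all 24 libraries and Pecam1 and Cdh5 at most 9 counts in a library. The summed endothelial list was at 268 to 296 CPM in LPS libraries, 299.9 to 320 CPM in control libraries, 324 to 341 CPM with (GT)6 SWCNT and 326 to 350.2 CPM with COOH SWCNT. In the other 4 groups it ran from 277 CPM (DiBASC2) to 344 CPM (AAV), with each group overlapping control. No test was run on this sum, and its part in the receptor results was not tested. In bulk RNA a smaller number of cells that express a gene and less RNA per cell cannot be told apart.

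The genes lie on 7 chromosomes of GRCm38 (positions from GENCODE M21). The class A receptors are Marco (ENSMUSG00000026390.7, chromosome 1, 120474538 to 120505024) and Msr1 (ENSMUSG00000025044.16, chromosome 8, 39581685 to 39642673). The class B genes are all on chromosome 5: Cd36 (ENSMUSG00000002944.15, 17781690 to 17888801), Scarb2 (ENSMUSG00000029426.8, 92441314 to 92506833) and Scarb1 (ENSMUSG00000037936.15, 125277087 to 125341094). The lectin-like receptors Clec7a (ENSMUSG00000079293.11, 129461591 to 129472779) and Olr1 (ENSMUSG00000030162.14, 129485244 to 129507165) are close to each other on chromosome 6. Cd68 (ENSMUSG00000018774.13) is at chromosome 11, 69664213 to 69666153, Stab1 (ENSMUSG00000042286.13) at chromosome 14, 31139013 to 31168641, and Mrc1 (ENSMUSG00000026712.3) at chromosome 2, 14229392 to 14332057. Mrc1 is on the plus strand and the other genes on the minus strand. The annotation types Clec7a as a polymorphic pseudogene and the others as protein-coding. The exons of Stab1 share 112 bp, 1.09% of their length, with Nt5dc2 on the opposite strand. Whether strand was used in counting is not given in the sources used here, and no other receptor gene of the 10 shares exon bases with another gene.

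In untreated cells the receptors other than Olr1 spanned more than 3 powers of 10 in level per kilobase of exons. Cd68, which encodes the late-endosome and lysosome glycoprotein macrosialin, was at 650.2 ± 2.26 CPM per kb (SD, n = 3), above 99.5% of the 13116 genes tested. Cd36, a fatty-acid and oxidized-LDL receptor, followed at 37.0 ± 0.734 CPM per kb. Scarb2, which encodes the lysosomal membrane protein LIMP-2, was at 17.8 ± 1.04 CPM per kb and Scarb1, the HDL receptor SR-B1, at 17.3 ± 0.743 CPM per kb, a gap smaller than their SDs. Clec7a, which encodes the beta-glucan receptor Dectin-1, was at 12.7 ± 0.874 CPM per kb. The lower levels were those of Stab1 (stabilin-1, 3.81 ± 0.101 CPM per kb), Msr1 (SR-A1, 1.59 ± 0.0737 CPM per kb) and Mrc1 (the mannose receptor CD206, 0.876 ± 0.0821 CPM per kb). Marco was at 0.341 ± 0.0484 CPM per kb. Olr1, which encodes the oxidized-LDL receptor LOX-1, held 1, 0 and 2 counts in the control libraries, which is at or under the floor of 3 counts used here. The order of the 10 genes by level was the same in each of the 8 groups, except that Scarb1 stood above Scarb2 in LPS, (GT)6 SWCNT and COOH SWCNT.

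**Figure D1:**
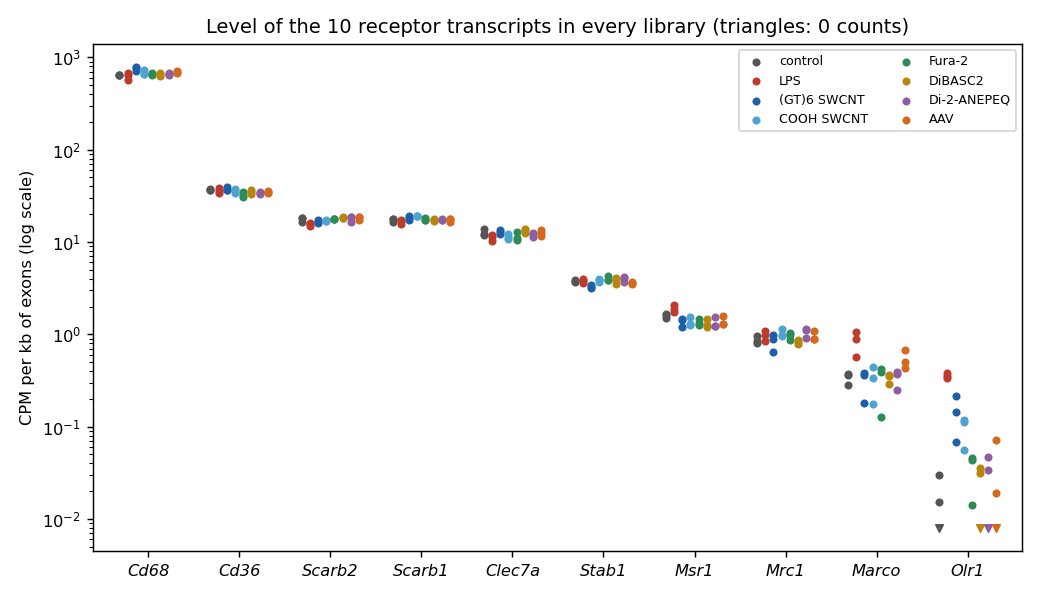
Level of each receptor transcript in CPM per kb of exons (log axis) in each of the 24 libraries, coloured by group, with triangles at the bottom for libraries with 0 counts. Cd68 lies at 650.2 CPM per kb in control and Marco at 0.341 CPM per kb, the libraries of Scarb1 and Scarb2 overlap, and those of Marco and Olr1 scatter most.

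LPS and both kinds of nanotube changed 2 or 3 of the 10 receptors, and Fura-2, the dyes and AAV changed none at the threshold. A gene was called at an adjusted p under 0.05 (edgeR's quasi-likelihood test, two-sided, Benjamini-Hochberg over all 13116 genes). In LPS, Marco and Olr1 rose and Scarb2 fell, 3 of 10 receptors, where 28.3% of all genes tested were called. In (GT)6 SWCNT, Olr1 and Cd68 rose and Stab1 fell, 3 of 10 beside 20.4% of all genes. In COOH SWCNT, Olr1 and Scarb1 rose and none fell, 2 of 10 beside 20.0%. Olr1 reached the level of the low-count filter in 6 libraries. LPS, where it is highest, was the only group with all 3 libraries above that level, so its LPS call supports nothing about the set. These counts are near the share of all genes called. The median log2 fold change over the 10 receptors was −0.02 for LPS, −0.02 for COOH SWCNT and −0.03 for (GT)6 SWCNT. Over all genes it was −0.01, −0.0016 and −0.02 in the same order. Putting Olr1 at its lower bound cannot move these medians, because Olr1 stays above the middle. With upper-quartile scaling LPS gave 2 higher and 2 lower, Clec7a being the addition.

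In Fura-2, 0 of 10 receptors were called by edgeR beside 0.252% of all genes, 2 had an unadjusted p under 0.05, and DESeq2 called 1, Cd36. The all-gene count of 33 behind that share was 0 when control replicate 1, control replicate 3, Fura-2 replicate 2 or Fura-2 replicate 3 was left out, 106 when Fura-2 replicate 1 was left out and 57 when control replicate 2 was left out. DiBASC2 gave 0 of 10 beside 5.47%, with 1 receptor under an unadjusted 0.05. Di-2-ANEPEQ gave 0 of 10 beside 3.08%, with 2 receptors under an unadjusted 0.05. AAV gave 0 of 10 beside 5.00%, with 1 receptor under an unadjusted 0.05, and DESeq2 called none in these last 3 groups. All 7 contrasts share the 3 control libraries. The all-gene counts also moved by over 1.5 times: DiBASC2 from 717 to 333 without control replicate 1 and 459 without DiBASC2 replicate 3, Di-2-ANEPEQ from 404 to between 120 and 190 without control replicate 1, control replicate 3, Di-2-ANEPEQ replicate 2 or Di-2-ANEPEQ replicate 3, and AAV from 656 to between 157 and 278 without control replicate 1, control replicate 3, AAV replicate 2 or AAV replicate 3. No receptor was called in these 3 groups in any of those fits.

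**Figure D2:**
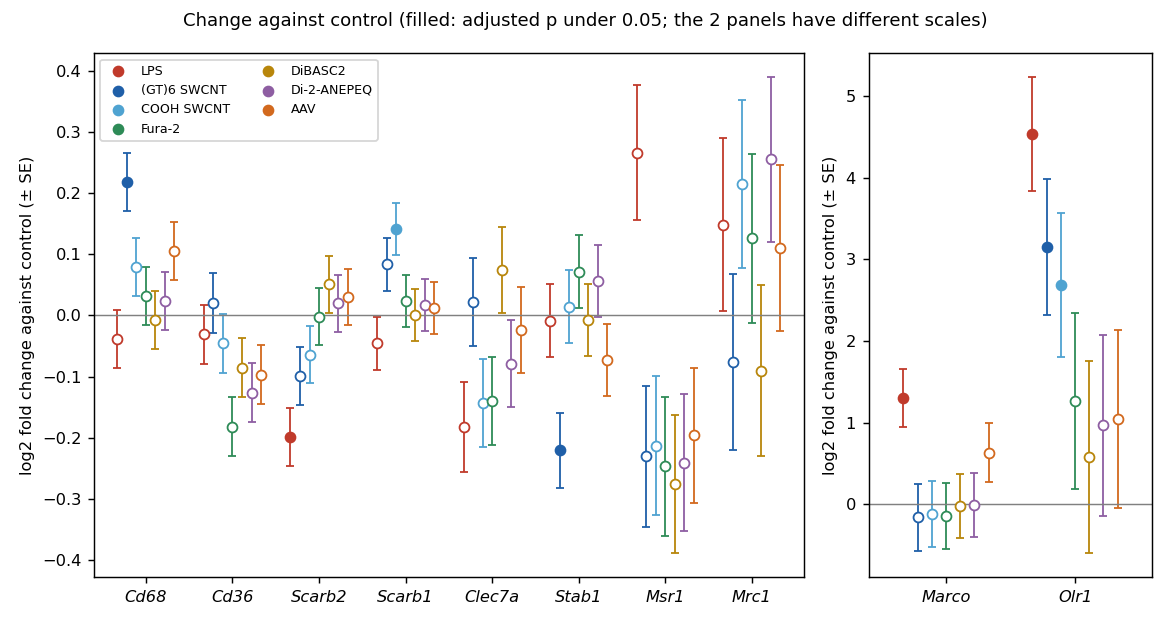
Log2 fold change of each receptor against control (± SE, 3 libraries a group) in the 7 treatments, with filled points for an adjusted p under 0.05, the left panel holding 8 genes on a narrow scale and the right panel Marco and Olr1 on a wider one. All filled points on the left lie within 0.22 of 0, while Olr1 in LPS lies at 4.54. The Olr1 points rest on control libraries with 1, 0 and 2 counts, at or under the floor. For LPS the values give only a lower bound of 3.08 (log2).

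Set against LPS directly, more receptors separated. (GT)6 SWCNT differed from LPS in 7 of 10 (Scarb1, Clec7a and Cd68 higher, Marco, Msr1, Olr1 and Stab1 lower), beside 21.6% of all genes. Without (GT)6 SWCNT replicate 2 this count was 3 (Marco, Msr1 and Cd68), and without (GT)6 SWCNT replicate 1 it was 4. COOH SWCNT differed from LPS in 6 of 10 (Scarb1, Scarb2 and Cd68 higher, Marco, Msr1 and Olr1 lower), beside 37.8% of all genes. The 7 and the 6 include Olr1, for which only LPS had all 3 libraries above the level of the low-count filter. Its calls against LPS support nothing about the set. The nanotubes differed from each other in 2 of 10, Cd68 higher and Stab1 lower in (GT)6 SWCNT, beside 21.4%. Marco and Msr1 were called lower than LPS in both nanotube groups in each fit that tested them, also with each library left out in turn.

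Promoter windows of 4 receptors whose transcripts moved are shown because they let the called genes be read against known factor motifs. They come from RefSeq on GRCm38.p6 and run from 250 bases before to 50 bases after the annotated start, 5′ to 3′ on the gene's strand. Capitals mark matches, on either strand, to an NF-kB-like pattern of 10 bases (GGG, any 5 bases, then CC), TGANTCA (AP-1-like), GAGGAA (PU.1-like core), CACGTG (the E-box of TFEB) and TGACNNNGC (antioxidant response-like). Windows were found for 8 of the 10 genes.
Olr1, chr6:129507116-129507415, minus strand: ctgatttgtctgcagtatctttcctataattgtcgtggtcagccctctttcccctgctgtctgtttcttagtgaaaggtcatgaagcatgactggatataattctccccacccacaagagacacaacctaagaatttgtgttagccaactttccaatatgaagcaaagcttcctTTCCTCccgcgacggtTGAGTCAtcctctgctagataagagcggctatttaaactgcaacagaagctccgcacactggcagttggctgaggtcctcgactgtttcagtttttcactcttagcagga
Cd68, chr11:69666121-69666420, minus strand: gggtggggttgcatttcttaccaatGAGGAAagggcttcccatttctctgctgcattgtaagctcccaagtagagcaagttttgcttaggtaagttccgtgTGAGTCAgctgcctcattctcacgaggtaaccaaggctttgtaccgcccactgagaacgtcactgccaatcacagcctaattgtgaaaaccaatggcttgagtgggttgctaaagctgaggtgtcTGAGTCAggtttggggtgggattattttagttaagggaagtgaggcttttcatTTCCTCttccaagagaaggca
Stab1, chr14:31168592-31168891, minus strand: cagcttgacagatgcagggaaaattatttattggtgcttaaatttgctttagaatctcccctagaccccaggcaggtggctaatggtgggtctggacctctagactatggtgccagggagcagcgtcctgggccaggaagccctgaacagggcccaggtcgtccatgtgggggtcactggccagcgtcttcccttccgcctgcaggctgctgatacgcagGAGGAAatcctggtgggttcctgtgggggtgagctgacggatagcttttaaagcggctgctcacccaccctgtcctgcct
Marco, chr1:120504975-120505274, minus strand: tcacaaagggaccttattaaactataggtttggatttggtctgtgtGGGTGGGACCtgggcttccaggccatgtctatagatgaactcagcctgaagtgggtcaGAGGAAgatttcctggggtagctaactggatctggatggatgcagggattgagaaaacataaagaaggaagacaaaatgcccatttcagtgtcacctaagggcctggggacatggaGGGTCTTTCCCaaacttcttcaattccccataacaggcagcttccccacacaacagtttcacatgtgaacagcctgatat

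Of the 8 genes with a window (Clec7a had 2 windows), Olr1 and Cd68 held the AP-1-like motif, in both as TGAGTCA. In all, 7.81% of 32817 mouse promoter windows hold the motif. Olr1 was called higher in LPS, (GT)6 SWCNT and COOH SWCNT. Cd68 was called higher in (GT)6 SWCNT and was not called in LPS or COOH SWCNT (log2 −0.04 and 0.08). In Olr1 the AP-1-like motif lies 60 to 54 bases before the start, next to a PU.1-like core on the other strand. In Cd68 it occurs at 149 to 143 and at 24 to 18 bases before the start. Stab1 held 1 PU.1-like core at 30 to 25 bases before the start, a motif found in 28.3% of windows. Cd68 held 2 PU.1-like cores, and of the genes not called against control Mrc1 held 3 and each Clec7a window 1. Cd36 and Scarb2 held 0. Marco held a PU.1-like core and NF-kB-like matches at 204 to 195 bases and, overlapping each other on both strands, at 30 to 20 bases before the start. Scarb2 held 4 NF-kB-like matches, Cd36 and Mrc1 held 1 each, and Olr1, Clec7a, Cd68 and Stab1 held 0. The NF-kB-like letters are loose and occur in 50.8% of windows. None of these genes' windows held CACGTG (7.15% of all windows), and Scarb2 held the antioxidant response-like match (12.4%). A match is a string of letters in the window and not a measured binding site. Whether any match has a part in a change of level was not tested.

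Marco, the class A receptor with a collagenous stalk, is known to be induced by bacterial products. It had 10, 17 and 13 counts in the control libraries and 20, 42 and 37 in LPS, or 0.549, 0.723 and 0.694 against 1.09, 2.05 and 1.73 CPM. The LPS libraries all lay above the control libraries, at low counts. The mean rose from 0.656 ± 0.0931 to 1.62 ± 0.491 CPM (SD, n = 3), or by 1.30 ± 0.35 on the log2 scale (adjusted p 0.0041; ± is the SE for log2 values here and the SD for levels), and the call was kept in each fit that tested Marco. In AAV, Marco was at 0.975, 0.823 and 1.30 CPM. The AAV libraries lay above those of control, where 24.6% of all genes had no overlap, and overlapped those of LPS. The difference from control was not called (0.63 ± 0.36, 95% interval −0.10 to 1.37, adjusted p 0.322). In the other 5 treatments Marco averaged 0.595 to 0.650 CPM, with 95% intervals that together ran from −1.01 to 0.78 (log2). Changes within the interval of a treatment are not excluded there at these counts. Against LPS, Marco was 2.76-fold lower in (GT)6 SWCNT (adjusted p 0.0019) and 2.67-fold lower in COOH SWCNT (adjusted p 0.00115).

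Msr1, which encodes the macrophage scavenger receptor SR-A1, was highest in LPS, and each LPS library lay above each library of the other 7 groups. Its levels were 10.6, 9.62 and 10.1 CPM in control and 11.2, 11.96 and 13.1 CPM in LPS, and the log2 difference of 0.27 ± 0.11 was not called (adjusted p 0.0699). It was called in the fit of only control and LPS (adjusted p 0.0377) and without LPS replicate 1. In the 6 other treatments Msr1 averaged 8.32 to 8.80 CPM, with log2 differences from control of −0.20 to −0.28, and was called in none. These differences share the same control libraries. Against LPS, Msr1 was lower in (GT)6 SWCNT by −0.50 ± 0.11 (log2, adjusted p 9e-04) and in COOH SWCNT by −0.48 ± 0.11 (adjusted p 0.000621). The nanotube groups did not differ detectably from each other, with a log2 difference of −0.02 (95% interval −0.25 to 0.22).

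**Figure D3:**
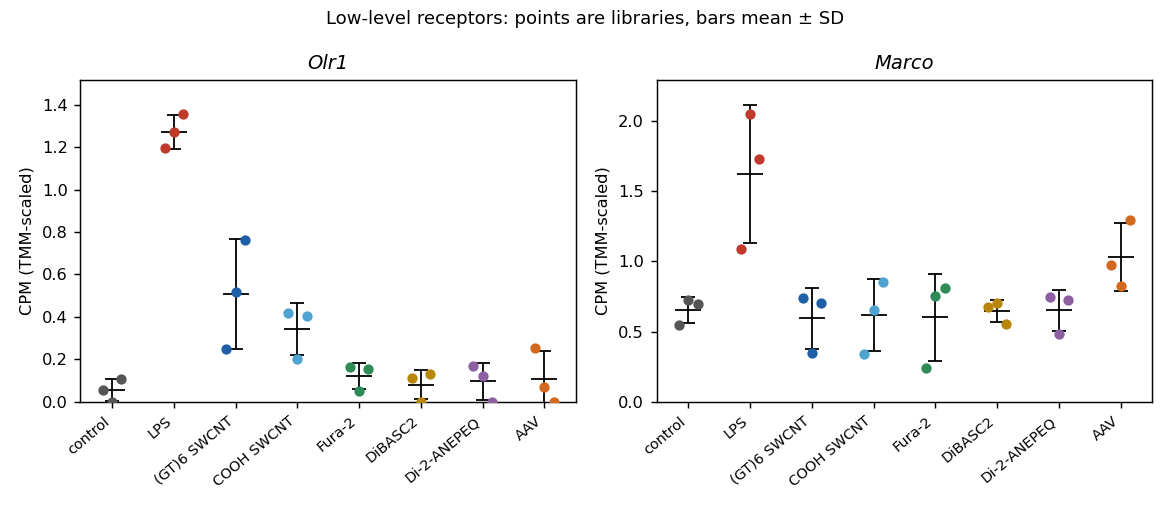
CPM of Olr1 and Marco in each library (points) by group, with bars for mean ± SD (n = 3), on linear axes from 0. For Olr1 the LPS libraries lie at 1.20 to 1.36 CPM and both nanotube groups lie between them and control, and for Marco the LPS libraries and 1 AAV library lie highest.

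Olr1 was the receptor with the largest change. LOX-1, its product, takes up oxidized LDL and is known to be induced by inflammatory signals. LPS libraries held 22, 26 and 29 Olr1 counts, against 1, 0 and 2 in control libraries. COOH SWCNT libraries held 11, 4 and 10 counts and (GT)6 SWCNT libraries 6, 12 and 13. The LPS libraries stood apart from every other library, and both nanotube groups lay above control while overlapping each other. The control mean was 0.0539 ± 0.0534 CPM, and the means of the treated groups were 1.27 ± 0.0802 CPM with LPS, 0.341 ± 0.122 CPM with COOH SWCNT and 0.508 ± 0.258 CPM with (GT)6 SWCNT. Against the control floor of 3 counts per library, Olr1 was at least 8.44-fold higher after LPS. The bound was 2.26-fold with COOH SWCNT and 3.37-fold with (GT)6 SWCNT, and the bounds themselves were not tested. The edgeR test on the counts gave an adjusted p of 2.06e-06 with LPS, 0.0265 with COOH SWCNT and 0.00511 with (GT)6 SWCNT. The COOH SWCNT call was lost without control replicate 1, control replicate 2, COOH SWCNT replicate 1 or COOH SWCNT replicate 3, with adjusted p up to 0.137. The LPS and (GT)6 SWCNT calls were kept in each fit that tested Olr1. For both nanotube groups DESeq2's test gave Olr1 no adjusted p, and the filter at a mean of 50 counts left it untested. LPS was the only group with all 3 libraries above the level of the low-count filter for Olr1. Olr1 did not pass that filter in fits of only control and a nanotube group.

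In AAV, Fura-2 and both dye groups Olr1 had 0 to 7 counts per library, overlapping control, and no fold is given. Its level in (GT)6 SWCNT was 2.61-fold under LPS (log2 −1.39 ± 0.44, adjusted p 0.02), a call lost without LPS replicate 2, LPS replicate 3, (GT)6 SWCNT replicate 1 or (GT)6 SWCNT replicate 2, with adjusted p up to 0.162. In COOH SWCNT it was 3.60-fold under LPS (−1.85 ± 0.46, adjusted p 0.00134). The nanotube groups differed by 0.46 ± 0.54, with a 95% interval of −0.63 to 1.55.

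Clec7a, the neighbour of Olr1 on chromosome 6, was called in no treatment against control. Its product Dectin-1 binds fungal beta-glucan and signals through Syk and Card9. It was at 36.1, 32.6 and 31.8 CPM in control and 26.8, 31.2 and 30.2 CPM in LPS. The LPS libraries were the lower ones without overlap, and overlap was absent for 38.3% of all genes tested. The log2 difference of −0.18 ± 0.07 missed the threshold (adjusted p 0.06). It passed with upper-quartile scaling, without the low-count filter and with the length and GC trend removed (adjusted p 0.00197 in the last). (GT)6 SWCNT, at 35.5, 33.8 and 32.3 CPM, did not differ detectably from control (0.02 ± 0.07) and was above LPS by 0.21 ± 0.07 (adjusted p 0.0388), a call lost without LPS replicate 1, (GT)6 SWCNT replicate 1 or (GT)6 SWCNT replicate 2. In the other 5 treatments Clec7a averaged 30.3 to 35.2 CPM, with none called.

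Cd68 rose in (GT)6 SWCNT. It is widely used as a marker of phagocytic activity because its product lines late endosomes and lysosomes. Its levels were 814, 818 and 819 CPM in control and 975, 989 and 889 CPM in (GT)6 SWCNT. The (GT)6 SWCNT libraries all lay above control, and the mean rose by 16.4%, a log2 fold change of 0.22 ± 0.05 (adjusted p 0.000626) that was called in each fit run. In COOH SWCNT the levels were 833, 927 and 831 CPM, also above each control library, where 34.4% of all genes had no overlap. The 0.08 ± 0.05 difference was not called (adjusted p 0.26). It was called with the length and GC trend removed (adjusted p 0.0233). AAV libraries lay at 849 to 905 CPM and were likewise not called (0.11 ± 0.05, adjusted p 0.191), except with that trend removed (adjusted p 0.0107).

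In LPS Cd68 was at 724, 819 and 846 CPM, overlapping control. Cd68 in (GT)6 SWCNT was above LPS by 0.26 ± 0.05 (adjusted p 6.43e-05), kept in each fit run, and above COOH SWCNT by 0.14 ± 0.05 (adjusted p 0.031). The difference between the nanotubes was lost with upper-quartile scaling, with the length and GC trend removed, and without (GT)6 SWCNT replicate 1, (GT)6 SWCNT replicate 2, COOH SWCNT replicate 1 or COOH SWCNT replicate 3 (adjusted p up to 0.276). The COOH SWCNT excess over LPS of 0.12 ± 0.05 (adjusted p 0.049) was lost with DESeq2's size factors, DESeq2's test and the fit of only those groups, and without LPS replicate 1, LPS replicate 2 or COOH SWCNT replicate 2 (adjusted p up to 0.451).

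**Figure D4:**
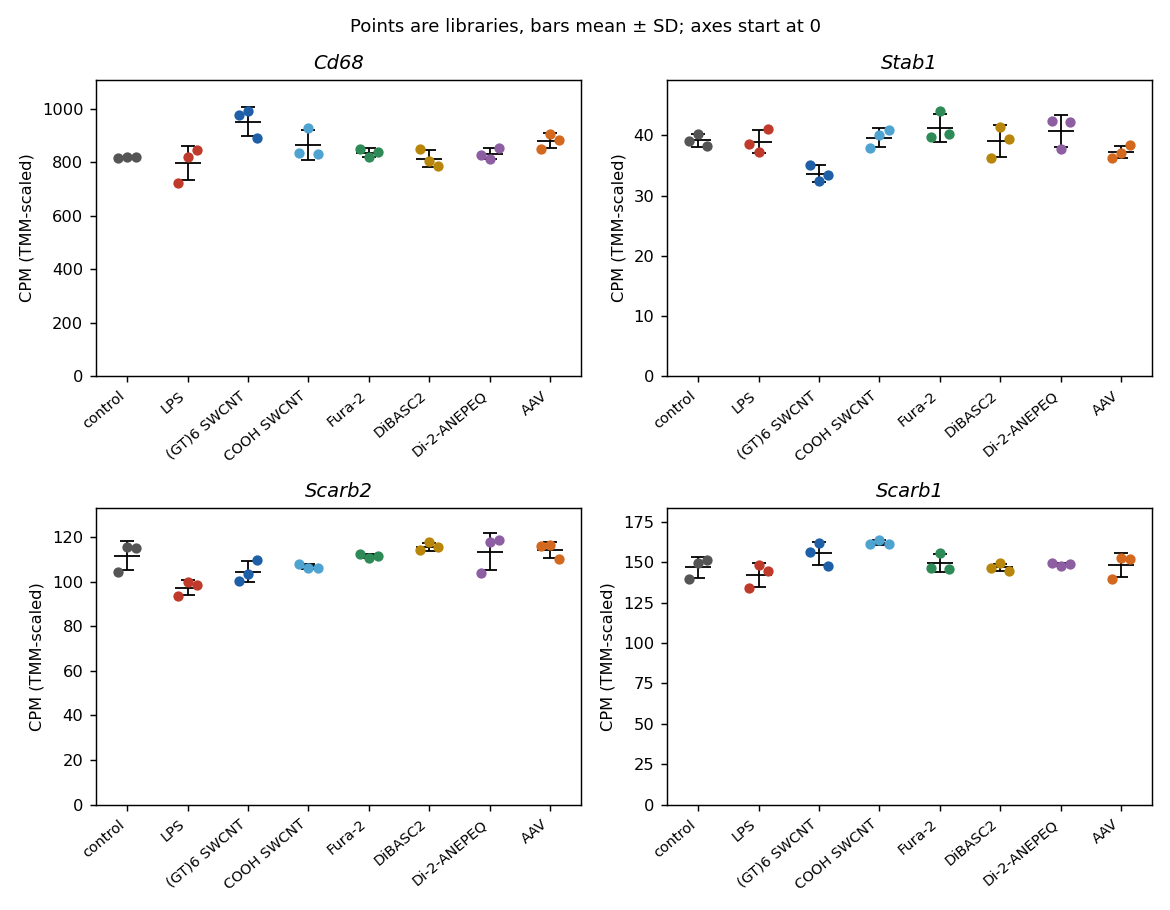
CPM of Cd68, Stab1, Scarb2 and Scarb1 in each library (points) by group, with bars for mean ± SD (n = 3), on linear axes from 0. (GT)6 SWCNT libraries are the highest for Cd68 in 2 of 3 cases and the lowest group for Stab1, LPS is lowest for Scarb2, and COOH SWCNT is highest for Scarb1, and all these group means are within 20% of control.

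Stab1 fell in (GT)6 SWCNT and was called in no other treatment against control. Stabilin-1 is a class H receptor that takes up SPARC and acetylated LDL in alternatively activated macrophages. It was at 39.01, 40.3 and 38.2 CPM in control and 35.1, 32.4 and 33.4 CPM in (GT)6 SWCNT. These 3 libraries were the lowest of the 24, and the log2 fold change was −0.22 ± 0.06 (adjusted p 0.00735). The call was lost without control replicate 2 or (GT)6 SWCNT replicate 2 (adjusted p up to 0.071). COOH SWCNT, at 37.9, 40.1 and 40.9 CPM, did not differ detectably from control (0.01 ± 0.06), and the nanotube groups differed by −0.23 ± 0.06 (adjusted p 0.00403). That difference was lost with the length and GC trend removed (adjusted p 0.155) and kept with each library left out. Against LPS the (GT)6 SWCNT difference was −0.21 ± 0.06 (adjusted p 0.00943), lost without LPS replicate 3 or (GT)6 SWCNT replicate 2.

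The class B genes split. Scarb2, whose product LIMP-2 carries beta-glucocerebrosidase to the lysosome, was at 104, 116 and 115 CPM in control and 93.4, 100.005 and 98.4 CPM in LPS. The LPS libraries were the lowest of the 24, and the mean fell by 12.9% (log2 −0.20 ± 0.05, adjusted p 0.00113), in each fit run. (GT)6 SWCNT (104 ± 4.76 CPM) and COOH SWCNT (107 ± 1.07 CPM) lay between LPS and control and differed from control by −0.10 ± 0.05 and −0.06 ± 0.05, neither called. COOH SWCNT was above LPS by 0.14 ± 0.05 (adjusted p 0.0213), lost with the length and GC trend removed and without LPS replicate 1, LPS replicate 3, COOH SWCNT replicate 1 or COOH SWCNT replicate 2 (adjusted p up to 0.112).

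Scarb1, whose product SR-B1 moves cholesterol between HDL and cells, was at 140, 149 and 151 CPM in control and 161, 164 and 161 CPM in COOH SWCNT. The COOH SWCNT libraries lay above control and close together, 10.3% higher on average (log2 0.14 ± 0.04, adjusted p 0.0155). This call was lost with the length and GC trend removed and without control replicate 1 or COOH SWCNT replicate 2 (adjusted p up to 0.0886). (GT)6 SWCNT averaged 155 ± 7.24 CPM and was not called against control (0.08 ± 0.04, adjusted p 0.188), and the nanotube groups differed by −0.06 ± 0.04 (95% interval −0.14 to 0.03). Both were above LPS, by 0.19 ± 0.04 in COOH SWCNT (adjusted p 0.000573) and by 0.13 ± 0.04 in (GT)6 SWCNT (adjusted p 0.027). The second of these was lost in the fit of only those groups, with the length and GC trend removed, and without LPS replicate 1, (GT)6 SWCNT replicate 1 or (GT)6 SWCNT replicate 2.

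Cd36, the most abundant surface scavenger receptor of the set per length after Cd68, was called in none of the 10 contrasts. It was at 136, 131 and 131 CPM in control, and the treatment means ran from 117 CPM in Fura-2 to 135 CPM in (GT)6 SWCNT. With 95% intervals from −0.14 to 0.12 (log2) over LPS and both nanotubes, larger changes of Cd36 lie outside its intervals there. With the length and GC trend removed it was called lower in LPS (log2 −0.14, adjusted p 0.0208) and different between (GT)6 SWCNT and LPS (adjusted p 0.0154). In Fura-2 the libraries were at 125, 109.7 and 116 CPM, all under control, with a log2 difference of −0.18 ± 0.05 (adjusted p 0.085). This difference was called without the low-count filter, with DESeq2's test and without Fura-2 replicate 1 (adjusted p down to 0.0121). Cd36 was also under each control library in Di-2-ANEPEQ, AAV and DiBASC2 without a call. In these groups 24.3%, 24.6% and 22.6% of all genes did not overlap control, and in Fura-2 16.2%. In Di-2-ANEPEQ the fit of only those groups called Cd36 (adjusted p 0.0225).

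Mrc1, whose product binds mannose-ending sugars and marks alternatively activated macrophages, was called in no contrast. It was at 5.38, 6.17 and 5.18 CPM in control, and the group means ran from 5.26 CPM in DiBASC2 to 6.73 CPM in Di-2-ANEPEQ. The libraries of each treatment overlapped control. At 97 to 200 counts per library its intervals were wide, from −0.02 to 0.53 in Di-2-ANEPEQ. In (GT)6 SWCNT it lay under COOH SWCNT by −0.29 ± 0.14 (adjusted p 0.13), called without (GT)6 SWCNT replicate 2.

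**Figure D5:**
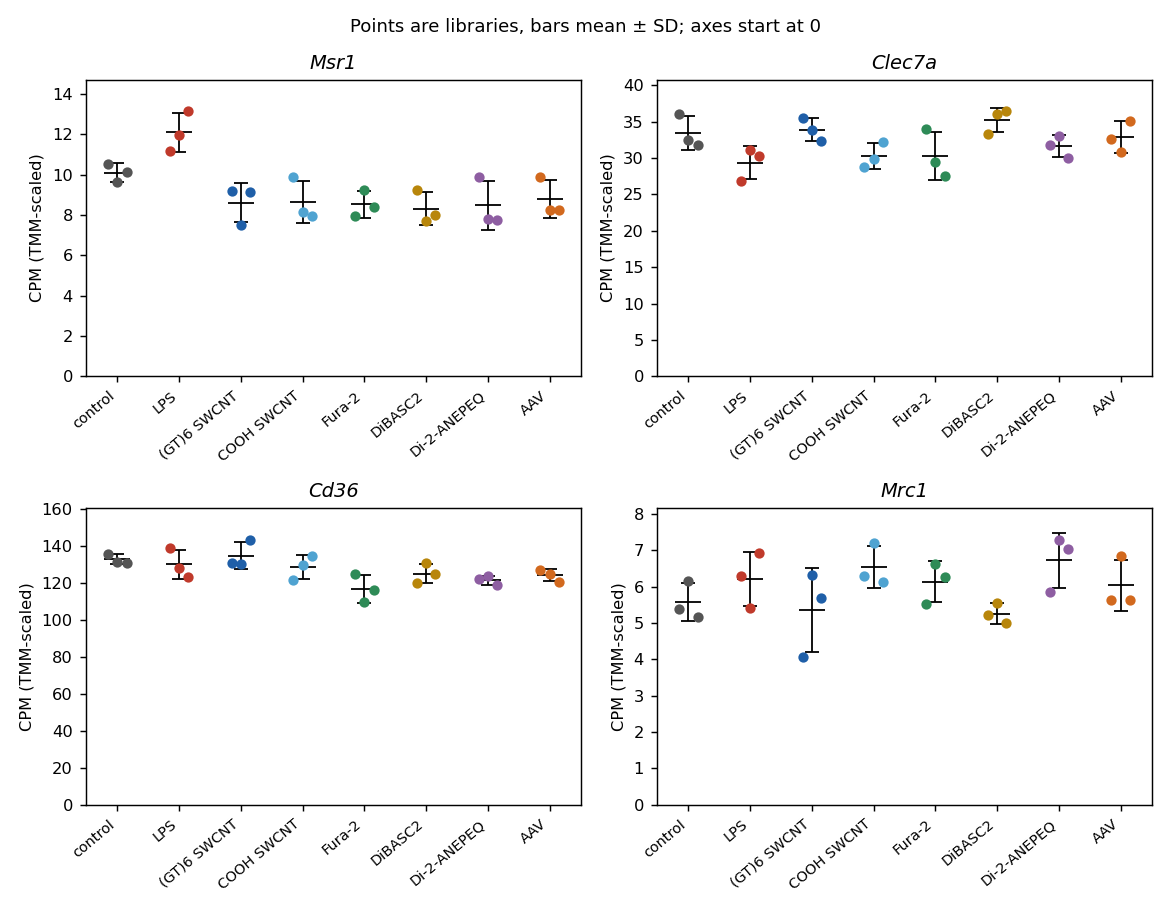
CPM of Msr1, Clec7a, Cd36 and Mrc1 in each library (points) by group, with bars for mean ± SD (n = 3), on linear axes from 0. None of these 4 genes was called against control, the LPS libraries are the highest for Msr1, and the Fura-2 mean is the lowest for Cd36.

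The genes whose 8 group means (log2 of CPM + 0.5) ran most like those of each called receptor were found among 9492 or 9493 genes with a mean of at least 5 CPM. For Olr1 they were Nfkb1, Pim1 and Myc (Pearson r 0.9928, 0.9928 and 0.9924). For Scarb2 they included Osbpl11 and Snx30 (0.9962 and 0.9951). Scarb2 ran opposite to Olr1 (−0.9734), the largest correlation in size among all pairs of receptors. In control, Fura-2, the dyes and AAV, Olr1 held at most 7 counts in a library. Against control, Scarb2 was called only in LPS. Cd68 was most like Arhgap44, Pmaip1 and Arhgap31 (0.9665, 0.9637 and 0.9627), and Stab1 like Mllt10, Klhl15 and Hinfp (0.9804, 0.9215 and 0.9205). Marco was most like Fth1 (0.9781), which encodes ferritin heavy chain, Slc44a1 and Heca, and Scarb1 like Ccnyl1 (0.9632), Mical2 and Mef2d. These are descriptions over 8 means that come from the same libraries.

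Other receptors of the same uptake systems were read from fixed lists. Of 13 other C-type lectins of myeloid cells 10 were tested, and in LPS 6 rose and none fell, beside 28.3% of all genes called (median log2 fold change 0.48, beside −0.01 over all genes). Clec4e, which encodes the Syk-coupled receptor Mincle, rose from 161 ± 13.2 to 680 ± 18.0 CPM in LPS (2.08 ± 0.07, adjusted p 2.14e-25) and to 211 ± 12.2 CPM in (GT)6 SWCNT (0.39 ± 0.07, adjusted p 1.32e-05), and fell to 119 ± 7.37 CPM in DiBASC2 (−0.43 ± 0.07, adjusted p 3.28e-05). Clec4d, its partner MCL, rose from 122 to 171 CPM in LPS and Clec5a from 70.7 to 99.4 CPM. In this list 1 gene rose in (GT)6 SWCNT (20.4% of all genes called) and 1 fell in each of COOH SWCNT (20.0%), DiBASC2 (5.47%) and Di-2-ANEPEQ (3.08%). None was called in Fura-2 (0.252%) or AAV (5.00%).

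Of 14 other scavenger receptors only 5 passed the filter. In LPS 1 of them rose, beside 28.3% of all genes called, and in COOH SWCNT 2 rose, beside 20.0%. In Di-2-ANEPEQ (3.08%) and AAV (5.00%) 1 rose in each. None was called in (GT)6 SWCNT (20.4%), Fura-2 (0.252%) or DiBASC2 (5.47%), and none fell in any treatment against control. Lrp1, a large endocytic receptor for lipoproteins and proteases, was at 370.1 ± 19.0 CPM in control, 431 ± 20.6 CPM in COOH SWCNT, 431 ± 3.15 CPM in Di-2-ANEPEQ and 444 ± 45.9 CPM in AAV. It rose in all 3 (log2 0.22, 0.22 and 0.26, each ± 0.06, adjusted p 0.00833, 0.0374 and 0.00897). Each of these calls was lost in some fits: in COOH SWCNT without replicate 1 of that group and with the length and GC trend removed, in AAV without control replicate 1, AAV replicate 2 or AAV replicate 3, and in Di-2-ANEPEQ in 7 of 14 fits. The other calls of this list, chosen here after its values were seen, were of Cxcl16, at under 1 CPM in LPS and COOH SWCNT.

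Of 19 Fc, integrin, TAM, TIM and TREM2 receptors of phagocytosis 16 were tested, and in LPS 2 rose and 6 fell, beside 28.3% of all genes called. Fcgr1, the high-affinity IgG receptor, fell from 66.3 ± 1.82 to 49.1 ± 3.18 CPM in LPS (−0.43 ± 0.05, adjusted p 2.49e-08) and to 53.5 ± 4.31 CPM in (GT)6 SWCNT, while the inhibitory Fcgr2b rose from 21.2 to 27.2 CPM in LPS. In (GT)6 SWCNT 4 of the 16 rose and 2 fell (4 and 1 with DESeq2's size factors), and in COOH SWCNT 4 rose and 3 fell (4 and 1 with upper-quartile scaling), beside 20.4% and 20.0% of all genes. Itgax, the integrin CD11c, rose from 46.7 ± 1.01 CPM to 58.0 ± 3.67 CPM and 54.8 ± 0.891 CPM in these groups. None was called in Fura-2 (0.252% of all genes), 1 fell in each of DiBASC2 (5.47%) and Di-2-ANEPEQ (3.08%), and 1 rose and 1 fell in AAV (5.00%).

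Downstream of Dectin-1 and CD36, 14 of 14 signalling genes were tested. In LPS 5 rose and 3 fell, in (GT)6 SWCNT 7 rose and 3 fell, and in COOH SWCNT 5 rose and none fell, beside 28.3%, 20.4% and 20.0% of all genes called. Malt1, the protease of the Card9 complex, rose from 53.3 ± 1.68 CPM to 68.6 ± 5.13 CPM with COOH SWCNT, 87.8 ± 4.70 CPM with (GT)6 SWCNT and 139 ± 5.21 CPM with LPS. Its partner Bcl10 rose in LPS (0.57 ± 0.05) and (GT)6 SWCNT (0.36 ± 0.05) and fell in DiBASC2 (−0.27 ± 0.05). Card9 itself fell in LPS, from 70.6 to 59.9 CPM, and in (GT)6 SWCNT to 63.0 CPM (−0.16 ± 0.04, adjusted p 0.00457). Syk (−0.14 ± 0.04, adjusted p 0.00659) and Prkcd (−0.17 ± 0.04, adjusted p 0.000632) also fell in (GT)6 SWCNT. There the Card9 call was lost in 2 of 14 fits, that of Syk in 1 and that of Prkcd in 0. In DiBASC2 1 gene of the list fell (Bcl10; 1 rose too with upper-quartile scaling), beside 5.47% of all genes, and none was called in Fura-2, Di-2-ANEPEQ or AAV (0.252%, 3.08% and 5.00%).

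Of 14 transcription factors known to control these receptors 13 were tested. In LPS 4 rose and 5 fell, in (GT)6 SWCNT 6 rose and 5 fell, in COOH SWCNT 4 rose and 3 fell, and in DiBASC2 2 rose and 2 fell, with none called in the 3 other groups. The shares of all genes called were 28.3%, 20.4%, 20.0% and 5.47% in those 4 groups and 0.252% to 5.00% in the others. Nfe2l2, which encodes the oxidative stress factor NRF2, rose from 193 ± 1.54 CPM to 392 ± 12.6 CPM with LPS and 242 ± 4.98 CPM in (GT)6 SWCNT and fell to 167 ± 2.72 CPM in DiBASC2. Cebpa fell with LPS (−1.03 ± 0.14), with COOH SWCNT (−0.49 ± 0.13) and with (GT)6 SWCNT (−0.75 ± 0.14).

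Of 12 lipid cargo and efflux partners of CD36 and SR-B1 11 were tested, and in LPS 3 rose and 5 fell, beside 28.3% of all genes called. The cholesterol exporters went opposite ways in LPS, Abca1 from 33.9 ± 0.598 up to 56.8 ± 3.55 CPM and Abcg1 from 40.8 ± 3.004 down to 22.3 ± 2.44 CPM. In (GT)6 SWCNT, beside 20.4% of all genes, 1 rose and 1 fell: Fabp4, a fatty-acid binding protein, from 38.1 to 52.3 CPM, and Abcg1 to 30.7 CPM. In COOH SWCNT, beside 20.0%, 2 rose and 3 fell, with Abca1 at 48.4 ± 2.10 CPM, and in DiBASC2 1 rose, beside 5.47%. The COOH SWCNT calls of Npc1, Abcg1, Fabp5 and Lpl were lost in 3, 4, 2 and 6 of 14 fits. Among 16 of 17 genes of the uptake machinery (clathrin, dynamin, Rab and actin genes), 2 rose in LPS and none fell (2 and 2 with upper-quartile scaling), 4 rose in (GT)6 SWCNT, and 1 each rose in COOH SWCNT, Di-2-ANEPEQ and AAV. All genes were called at 28.3%, 20.4%, 20.0%, 3.08% and 5.00% in these groups, so 2 of 16 and 1 of 16 lie under the all-gene share in LPS and COOH SWCNT. Among the 8 lysosome partners of CD68 and LIMP-2, none was called in LPS, 1 rose in (GT)6 SWCNT (Ctsb, 3321 ± 45.02 to 3581 ± 41.2 CPM), and 1 rose and 1 fell in COOH SWCNT, beside 28.3%, 20.4% and 20.0% of all genes. In LPS the median log2 fold change was −0.04 for the phagocytosis receptors, 0.02 for the signalling genes, 0.14 for the transcription factors, −0.01 for the lipid partners and −0.01 for the uptake machinery, beside −0.01 over all genes.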

How the data were processed

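Poly-A RNA of 24 libraries (8 groups of 3) was sequenced. The authors deposited a table of raw counts per gene, whole numbers with no normalization. Reads were aligned with STAR 2.5.4b to GRCm38.p6, per the submitters' processing notes. The counting tool, strand setting and annotation release are not given in the sources used here. Groups came from sample titles, and 0 columns were left out. Symbols were taken from GENCODE M21: of 54838 identifiers 53947 matched with their version, 54809 without it, and 29 did not match.

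In R 4.3.3, genes were kept by edgeR 4.0.16 filterByExpr (13116 genes, CPM near 0.416 in 3 libraries). Marco reached that level in 21 libraries, Olr1 in 6 and the other 8 receptors in 24. One quasi-likelihood fit with TMM factors and a mean per group used all libraries (16 residual degrees of freedom, biological coefficient of variation 4.12%). The 10 contrasts were tested two-sided (glmQLFTest) with Benjamini-Hochberg adjustment, and calls were made under 0.05. The SE is the absolute log2 fold change over the square root of F. Levels compared between genes are CPM per kb of merged exons. The script was tested on simulated data. All 24 replicate pairs differed by more than sampling noise (chi-square per degree of freedom 2.46 to 19.4), so each library counts once. The main fit did not treat replicate numbers as pairs. In each contrast 0 of 3 same-number correlations were over 0.1, a cut-off that cannot exclude a weaker pairing.

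Each result was recomputed with DESeq2 1.42.0 (its size factors, then its test), with upper-quartile factors, with the low-count filter off or set to a mean of 50 counts, with replicate number as a block, in fits of only the 2 groups, with length and GC trends fitted per library and taken out, and with each library left out. Named list genes were at most the 3 called genes of each direction with the largest change, a mean of at least 5 CPM over 6 libraries and no overlap. The 10 receptors and the lists were chosen with earlier results of these data known. Not every gene the naming rules allow is reported here.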

Additional observations from a re-analysis of the deposited data

How the results depend on the processing

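Over 1361 recomputed receptor values, 1303 kept their side of the threshold, 42 lost a call, 16 gained one and 0 called values reversed, while 77 values that were called in neither fit changed sign. The number of receptors called in LPS (3) was 1 with a mean of at least 50 counts, which leaves Marco and Olr1 untested, and 5 with the length and GC trend removed. In COOH SWCNT (2) it was 1 with a mean of at least 50 counts, 1 in the fit of only the 2 groups and 1 with DESeq2's test. In Fura-2 (0) it was 1 without the low-count filter and 1 with DESeq2's test, in Di-2-ANEPEQ (0) 1 in the fit of only the 2 groups, and in AAV (0) 1 with the length and GC trend removed. For (GT)6 SWCNT against COOH SWCNT (2) it was 1 with upper-quartile factors and 0 with the length and GC trend removed; the cause was not tested. Leaving out each library gave 3 to 4 in LPS, 2 to 4 in (GT)6 SWCNT, 0 to 2 in COOH SWCNT (0 without control replicate 1), 0 to 1 in Fura-2, 0 to 0 in DiBASC2, Di-2-ANEPEQ and AAV, 3 to 7 in (GT)6 SWCNT against LPS, 4 to 6 in COOH SWCNT against LPS and 1 to 2 in (GT)6 SWCNT against COOH SWCNT. With the replicate block, COOH SWCNT against LPS gave 5 in place of 6, Cd68 losing its call, and no other receptor call changed. Correlations of same-numbered libraries were the best for all 3 numbers in AAV against control and for at most 2 in the other contrasts. The all-gene count in Fura-2 (33) was 188 without the low-count filter, 80 in the fit of only the 2 groups, 53 with the trend removed and 86 with DESeq2. That of DiBASC2 (717) was 1258 with the trend removed, and that of Di-2-ANEPEQ (404) was 814 in the fit of only the 2 groups. The counts that leave out each library over all genes, and the repeats for the lists, were chosen after seeing the data. Of 90 list results that the naming rule allows, 58 kept their call in each fit and 32 lost it in at least 1. Counts limit Olr1 and Marco, where a few reads per library set each value.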
